A study of Homo sapiens with 6 samples.

Results

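Genes of the extracellular matrix were followed in mRNA recovered by pulling down tagged ribosomes from a human cell line. The members were chosen by symbol as collagen chains and laminin chains, together with 19 named matrix glycoproteins and proteoglycans. They came to 60 of 16834 genes, with 36 collagen chains, 10 laminin chains and 14 of the named genes. ELN, LUM, MGP, THBS2 and FBLN2 of the named genes were not analysed here. The extracellular matrix is the protein scaffold that cells secrete around themselves. Collagens are built as triple helices from 3 alpha chains. Collagen IV and the laminins form the 2 networks of the basement membrane, the sheet under epithelia, and nidogens and perlecan tie these networks together. The fibrillar collagens I, III and V, with small proteoglycans that bind them, make up the fibres of connective tissue and are known as products of fibroblasts.

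The cells were HEK-293T Flp-In cells, an embryonic kidney line that the labels call epithelial-like. All 6 libraries came from cells carrying the same ccTaggedRP construct, a single integrated copy under the CAG promoter that makes both tags from 1 bicistronic mRNA. One tag is a Flag epitope on the ribosomal protein RPL10a joined to a fragment of Cdt, predicted to accumulate in G1 and S phase. The other is an HA epitope on RPL10a joined to a fragment of geminin, predicted to accumulate in S, G2 and M phase. Cells were asynchronous, and ribosomes were pulled down with an anti-Flag antibody (Flag-IP, 3 libraries) or an anti-HA antibody (HA-IP, 3 libraries). The comparison therefore asks which mRNAs were recovered more with 1 antibody than with the other. No library of input RNA or of a mock pull-down is among the 6. Binding to ribosomes of 1 tag and the background of its antibody therefore cannot be told apart. The RPL10a in both fusions is the mouse protein, and the line stands for 1 integration site. No label says that the 3 libraries of a group came from separate cultures, so the p-values measure the spread between these libraries, which may be technical.

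Values are normalized counts, that is, read counts divided by 1 size factor per library, and a level compared between genes is given per kilobase of transcript. Reads assigned to genes ranged from 23174532 to 33429519 in the Flag-IPs and from 28737728 to 44134833 in the HA-IPs. The members together took from 0.624% to 0.692% of the normalized counts of a Flag-IP and from 0.681% to 0.710% of an HA-IP. Epithelial markers were present in both groups, with EPCAM at a mean of 3160.1 ± 147 (SD) normalized counts in the Flag-IPs against 3991 ± 143 in the HA-IPs (n = 3 each). Of 11 kidney and epithelial markers, EPCAM and CDH1 were higher in the HA-IPs and PAX2, PAX8 and SLC12A1 higher in the Flag-IPs. The log2 fold changes of the 11 (HA-IPs over Flag-IPs) ran from -3.94 to 0.34, with 3 at -1 or less. Genes of heart muscle were also present, much higher in the Flag-IPs and, among the HA-IPs, in replicate 3. Their values are given after the members higher in the Flag-IPs. A log2 fold change is positive where the HA-IPs were higher, and a gene was called where limma gave an adjusted p of 0.05 or less (Benjamini-Hochberg over all 16834 genes).

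Among the 19 basement membrane genes (laminins, collagen IV and their linkers), 6 were slightly higher in the HA-IPs (31.6%). COL18A1 and FBLN1, also known from basement membranes, are not among the 19. COL18A1 was not called and FBLN1 was higher in the Flag-IPs. Of the 10 fibrillar collagens, 4 were higher in the Flag-IPs, among them both chains of collagen I and that of collagen III, 1 was higher in the HA-IPs and 5 were not called. Of the 3 proteoglycans, DCN and BGN were higher in the Flag-IPs by many fold and VCAN was not called. The HA-IPs were higher for 11 of the 60 members, with log2 fold changes from 0.18 to 0.26. Another 10 were higher in the Flag-IPs, with log2 fold changes from -0.23 to -4.92 (BGN, whose fitted value depends on the pseudocount), and 39 were not called. Over all genes, the share called was 12.9%, made up of 5.79% toward the HA-IPs and 7.1% toward the Flag-IPs. Among the members these shares were 35%, 18.3% and 16.7%. The median log2 fold change was 0.13 over the members and -0.0049 over all genes. The 3 libraries of one group lay entirely above or below those of the other for 33 of the 60 members (55%), against 32.2% of all genes. This share rises with level. At a mean of at least 1000 normalized counts it was 63.3% of members against 46.4% of all genes. Below that level it was 46.7% against 24.3%. A log2 fold change of -1 or less was found for 8 members and for 3.34% of all genes. Each gene of the table has at least 10 reads in 3 libraries. BGN, DCN, COL8A1 and COL1A2 reached 10 reads in all 3 Flag-IPs but not in all 3 HA-IPs, as did COL6A5, and COL6A3 and COL6A6 did so in the HA-IPs only, so these members could enter the table through 1 group.

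**Figure D1:**
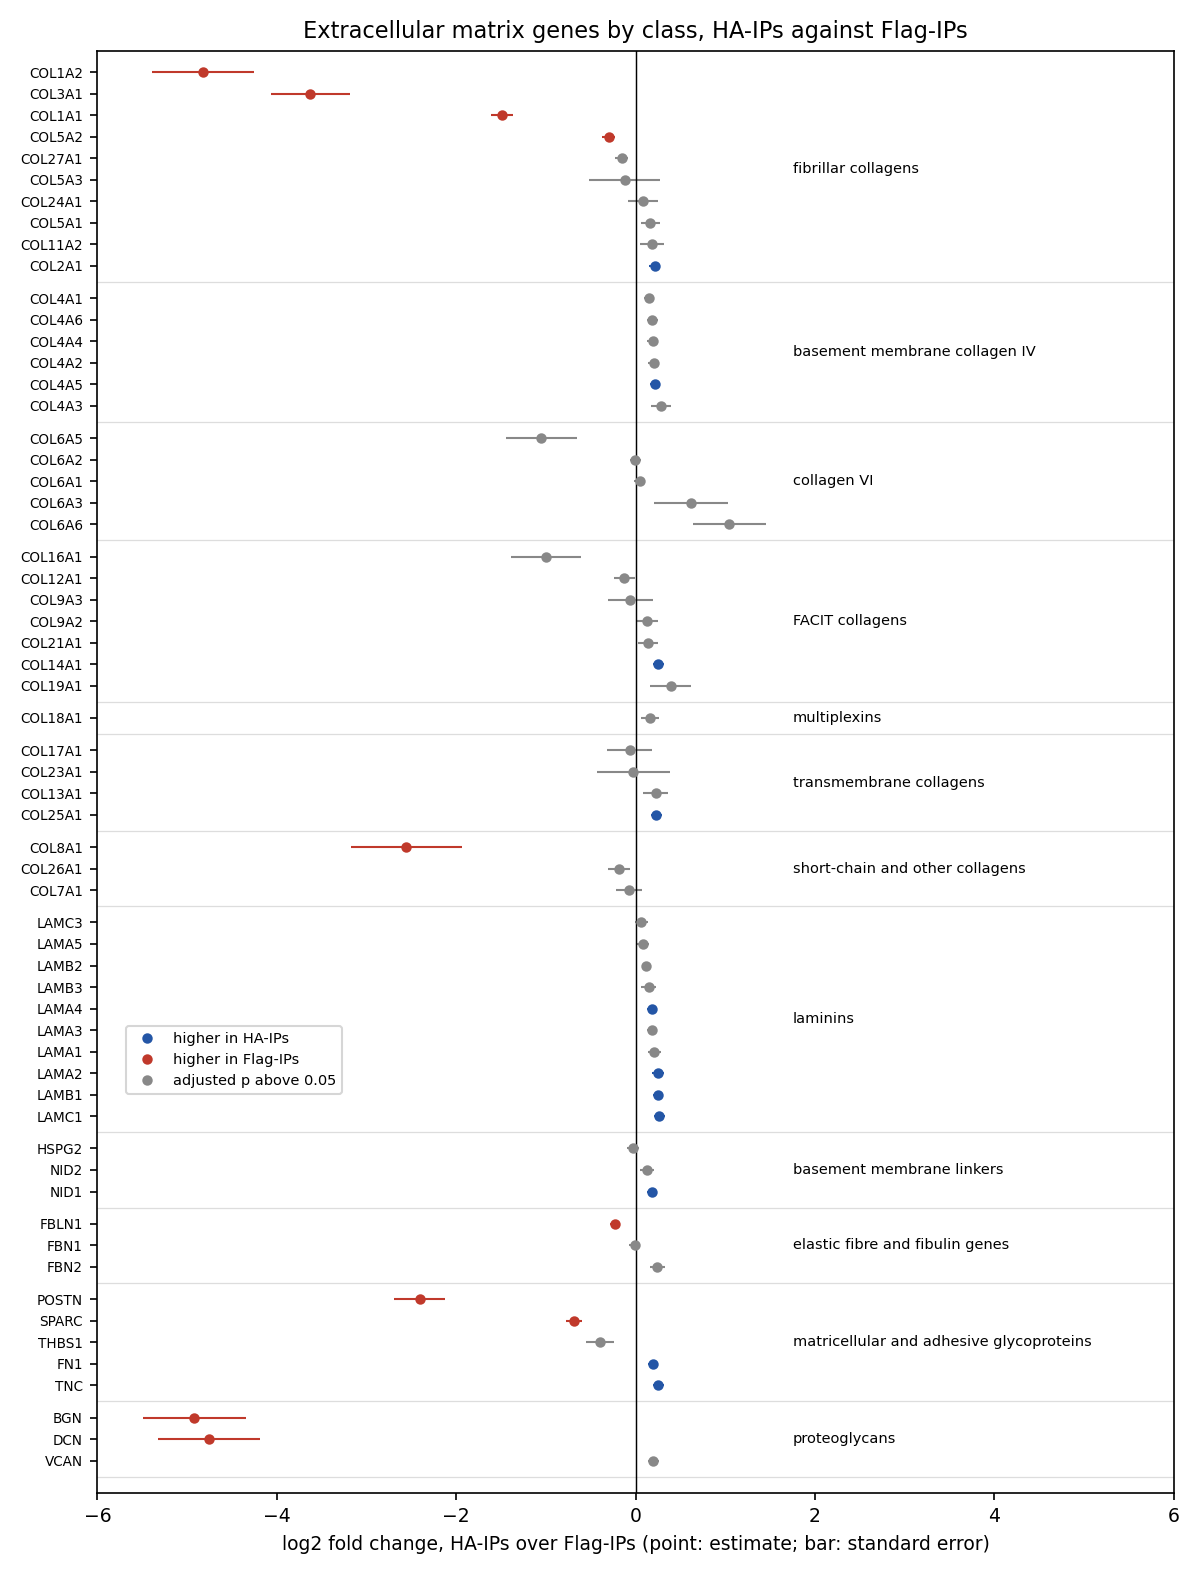
Log2 fold change (x axis, HA-IPs over Flag-IPs, n = 3 libraries each) of the 60 matrix genes, grouped by class, with each point an estimate from limma and each bar its standard error. The 11 genes higher in the HA-IPs sit between 0.18 and 0.26, while the 10 higher in the Flag-IPs reach down to -4.92.

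Laminins are trimers of 1 alpha, 1 beta and 1 gamma chain. All 10 laminin chains analysed had a positive log2 fold change, from 0.066 for LAMC3 to 0.26 for LAMC1, and 4 were called (LAMC1, LAMB1, LAMA2 and LAMA4). With GC and length trends removed, LAMC3 went to -0.091 and LAMA5 to -0.18, and the other 8 stayed positive. LAMC1, the gamma chain of most laminins, had the highest level per length of all members in both groups, at 3252 normalized counts per kilobase in the HA-IPs against 2717 in the Flag-IPs. Its counts were 20290.3, 20756 and 23576 in the Flag-IPs against 24654, 26426 and 26267 in the HA-IPs. Every HA-IP was above every Flag-IP, although Flag-IP replicate 3 came close to HA-IP replicate 1. The means differed by 1.20-fold (log2 0.26 ± 0.061 SE, limma adjusted p = 0.0185). LAMB1, the beta chain that pairs with it, had 12309, 13009 and 14317 counts in the Flag-IPs against 15247, 15899 and 15889.7 in the HA-IPs, a 1.19-fold difference (limma adjusted p = 0.0171). LAMA3 and LAMB3, chains of epithelial basement membranes, were at log2 0.19 and 0.15 and did not pass (adjusted p = 0.0504 and 0.302). LAMA2, the alpha chain of muscle basement membrane, had 2480.4, 2421 and 2809 counts in the Flag-IPs against 2919, 3074 and 3149 in the HA-IPs. LAMA4, an alpha chain known from vessel walls, had 6406, 6287 and 7010.1 counts in the Flag-IPs against 7167, 7524 and 7707 in the HA-IPs. For both genes the lowest HA-IP lay above the highest Flag-IP, and the ratios of means were 1.19 and 1.14 (limma adjusted p = 0.0266 and 0.0443). LAMA1, LAMA5, LAMB2 and LAMC3 were between log2 0.066 and 0.21 and did not pass.

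The bases before the starts of LAMC1 and LAMB1 are shown because these are the laminin chains with the highest levels. They are the 250 bases upstream of the RefSeq start on GRCh38.p14, at chr1:183023170-183023419 on the plus strand and chr7:108003162-108003411 on the minus strand. Capitals mark GGGCGG or its reverse complement, the letters of a core Sp1 site, and copies that touch or overlap run together.
LAMC1: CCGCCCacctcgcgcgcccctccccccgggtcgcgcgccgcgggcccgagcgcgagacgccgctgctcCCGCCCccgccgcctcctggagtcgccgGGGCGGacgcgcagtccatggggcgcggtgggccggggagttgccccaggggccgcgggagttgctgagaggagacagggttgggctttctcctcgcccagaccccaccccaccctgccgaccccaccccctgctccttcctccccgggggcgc
LAMB1: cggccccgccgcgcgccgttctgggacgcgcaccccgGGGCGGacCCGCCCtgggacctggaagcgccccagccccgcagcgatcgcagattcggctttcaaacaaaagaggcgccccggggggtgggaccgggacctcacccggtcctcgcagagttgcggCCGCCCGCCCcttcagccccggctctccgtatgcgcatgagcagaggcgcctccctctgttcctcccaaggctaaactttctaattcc

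Collagen IV is the network-forming collagen of basement membranes, and its 6 genes lie as 3 head-to-head pairs. All 6 chains had positive log2 fold changes, from 0.15 for COL4A1 to 0.28 for COL4A3, and 1 passed the test. COL4A5, whose loss causes Alport kidney disease, had 3225, 3199.6 and 3632 counts in the Flag-IPs against 3716, 3905 and 4045 in the HA-IPs, a 1.16-fold difference (limma adjusted p = 0.0383). Its neighbour COL4A6 had 3141, 3134 and 3565 counts in the Flag-IPs against 3549, 3867 and 3741 in the HA-IPs, where Flag-IP replicate 3 exceeded the lowest HA-IP (log2 0.18, limma adjusted p = 0.0747). COL4A1 and COL4A2, the chains of the ubiquitous form, were at 1516 and 1981 normalized counts per kilobase in the HA-IPs, among the 7 members with the highest levels per length. COL4A2 had 10423, 10706 and 12250.1 counts in the Flag-IPs against 12656, 13195 and 12467 in the HA-IPs. The groups did not overlap, but the gene fell just outside the threshold (log2 0.20, limma adjusted p = 0.0522). COL4A1 was at log2 0.15 (adjusted p = 0.122), with 8471, 8622 and 9775 counts in the Flag-IPs against 9729, 10237 and 9781 in the HA-IPs. COL4A3 and COL4A4, the kidney glomerulus chains, were at log2 0.28 and 0.19 (adjusted p = 0.117 and 0.0694).

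The RefSeq starts of COL4A1 and COL4A2 are 127 bases apart on chromosome 13, on opposite strands, with 126 bases between them. The starts of COL4A4 and COL4A3 are 419 bases apart and those of COL4A6 and COL4A5 are 380 bases apart. The shared interval of COL4A1 and COL4A2 (GRCh38.p14, chr13:110307158-110307283, plus strand, read toward COL4A2) holds 1 CCAAT and 1 GGGCGG, shown in capitals.
COL4A1-COL4A2: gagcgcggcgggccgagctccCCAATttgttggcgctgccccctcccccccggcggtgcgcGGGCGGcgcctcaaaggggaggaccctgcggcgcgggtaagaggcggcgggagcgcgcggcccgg

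Nidogens bind laminin to collagen IV. NID1 had 10141, 10275 and 11128 counts in the Flag-IPs against 11875, 12141 and 11633 in the HA-IPs, so that every HA-IP was higher, by 1.13-fold in the means (log2 0.18 ± 0.05 SE, limma adjusted p = 0.0384). NID2 was at log2 0.13 (adjusted p = 0.3) and perlecan, encoded by HSPG2, at -0.032 (adjusted p = 0.814). In HSPG2 the libraries of both groups overlapped, from 1369 to 1447 counts in the Flag-IPs and from 1247 to 1461 in the HA-IPs.

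The other members higher in the HA-IPs were COL2A1, COL14A1, COL25A1, FN1 and TNC. COL2A1, the fibrillar collagen of cartilage, had the second highest level per length of the members, at 2968 normalized counts per kilobase in the HA-IPs. It had 12483, 12220.0 and 14263 counts in the Flag-IPs against 14861, 15364 and 14812 in the HA-IPs, a 1.16-fold difference (limma adjusted p = 0.0389). FN1, the adhesive glycoprotein fibronectin, had 7559.5, 7560.4 and 8549 counts in the Flag-IPs against 8889, 9179 and 9024 in the HA-IPs, with Flag-IP replicate 3 close to the HA-IPs (1.14-fold, limma adjusted p = 0.0382). COL14A1, a collagen that binds the surface of fibrils, had 5589, 5906 and 6655 counts in the Flag-IPs against 6951, 7329 and 7276 in the HA-IPs (1.19-fold, limma adjusted p = 0.0239). TNC, the anti-adhesive glycoprotein tenascin-C, had 1689.6, 1537 and 1749.8 counts in the Flag-IPs against 2048, 1992 and 1892 in the HA-IPs (1.19-fold, limma adjusted p = 0.023). The groups did not overlap for any of these, nor for COL25A1, a transmembrane collagen known from amyloid plaques, with means of 942 ± 37 and 1104 ± 21.8 (SD, n = 3 each).

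Flag-IP replicate 3 was the highest Flag-IP in all 11 of these genes, and in 41 of the 60 members. Without it 23 members were higher in the HA-IPs, and without Flag-IP replicate 1 the count was 5. Without Flag-IP replicate 2 or HA-IP replicate 2 it was 0 (16 and 15 members at an unadjusted p under 0.05), without HA-IP replicate 1 it was 1 (LAMC1) and without HA-IP replicate 3 it was 1 (TNC). In another fit, the trends of each library's log2 level on transcript GC content and length were removed. None of the 11 was then called (4 members at an unadjusted p under 0.05), and their median log2 fold change went from 0.23 to 0.11. All 11 kept a positive sign in each of these fits.

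**Figure D2:**
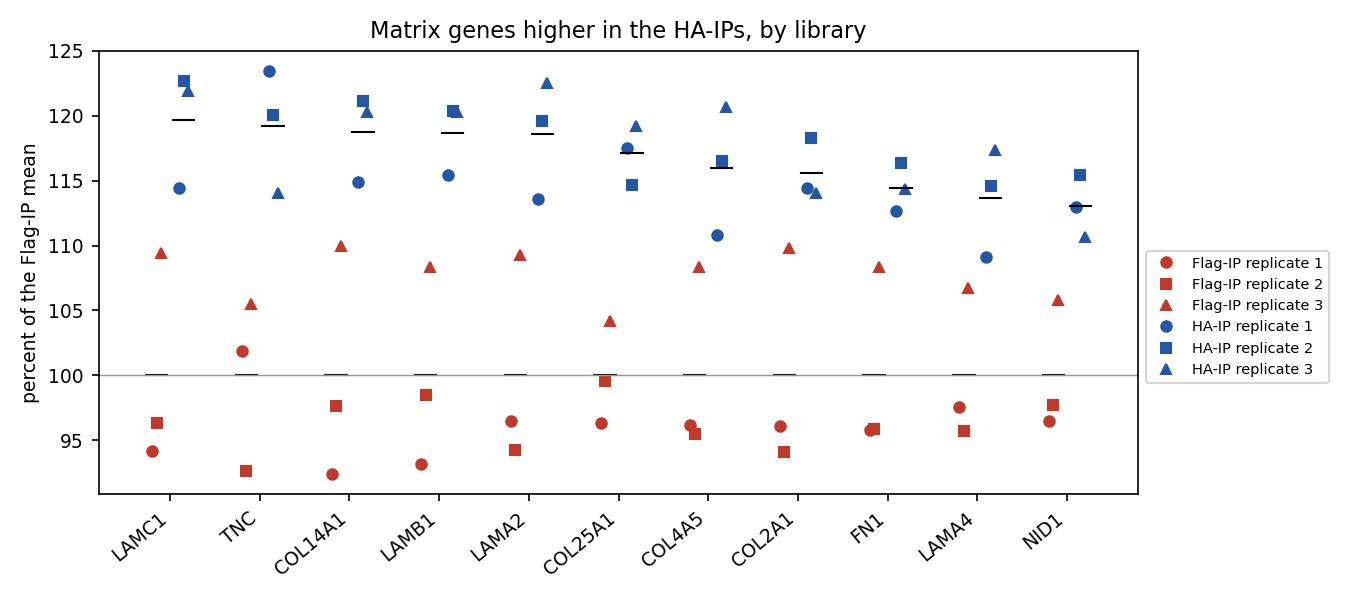
Normalized counts of the 11 matrix genes higher in the HA-IPs, as a percent of the Flag-IP mean (y axis) for each of the 6 libraries, with black bars at the group means. The HA-IPs (blue) lie above the Flag-IPs (red) for each gene, and Flag-IP replicate 3 (red triangle) is the highest Flag-IP throughout.

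The members higher in the Flag-IPs were 4 fibrillar collagen chains (COL1A1, COL1A2, COL3A1 and COL5A2), the small leucine-rich proteoglycans BGN and DCN, the matricellular genes POSTN and SPARC, COL8A1 and FBLN1. COL1A1 and COL1A2 encode the 2 chains of collagen I, the main collagen of bone, skin and tendon. COL1A1 had 4371, 4069 and 3045 counts in the Flag-IPs against 1330.1, 1220.2 and 1507 in the HA-IPs, a 2.83-fold difference (log2 -1.49 ± 0.12 SE, limma adjusted p = 9.2e-05). COL1A2 had 796, 634 and 399 counts in the Flag-IPs against 13.4, 7.92 and 68.4 in the HA-IPs, a 20.4-fold difference of means (log2 -4.82 ± 0.57 SE, limma adjusted p = 0.00058). The HA-IPs were the lower group for both chains, and HA-IP replicate 3 was the highest of them in both. COL3A1, which forms the fine fibrils of vessels and organs, had 1825, 1493 and 1035 counts in the Flag-IPs against 69.2, 71.3 and 296 in the HA-IPs. The means differed by 9.98-fold (log2 -3.63 ± 0.44 SE, limma adjusted p = 0.00062), and HA-IP replicate 3 was 4.21 times the mean of the other 2 HA-IPs. COL5A2, a chain of the collagen that starts fibrils, differed by 1.23-fold, from 689 ± 35.2 in the Flag-IPs to 559.6 ± 17.3 in the HA-IPs (SD, n = 3 each, limma adjusted p = 0.0231). It lies tail to tail with COL3A1 on chromosome 2, with 19151 bases between the 2 genes.

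Biglycan and decorin, encoded by BGN and DCN, are small proteoglycans that coat collagen fibrils. BGN had 48.1, 34 and 50.7 counts in the Flag-IPs against 0, 0 and 2.21 in the HA-IPs, where the single value above 0 stands for 2 reads. Against a floor of 3 reads per library it was at least 15.8-fold higher in the Flag-IPs (limma adjusted p = 0.00055). DCN had 182, 167 and 96.8 counts in the Flag-IPs against 2.12, 1.98 and 15.4 in the HA-IPs, a 22.8-fold difference of means (log2 -4.75 ± 0.57 SE, limma adjusted p = 0.00061). The 2 lower HA-IPs of DCN hold 3 and 2 reads. VCAN, the large proteoglycan versican, was at 1004 normalized counts per kilobase in the HA-IPs and at log2 0.20 (adjusted p = 0.0657), with 10032, 10496 and 11957 counts in the Flag-IPs against 11882, 12644 and 12639 in the HA-IPs.

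POSTN encodes periostin, a matricellular protein of healing and fibrotic tissue. It had 83.1, 87.2 and 68.3 counts in the Flag-IPs against 16.9, 9.9 and 16.5 in the HA-IPs, a 5.50-fold difference (log2 -2.41 ± 0.28 SE, limma adjusted p = 0.00055), and HA-IP replicate 3 was not the highest HA-IP. SPARC, a collagen-binding matricellular protein, had 3059.7, 2877 and 2364 counts in the Flag-IPs against 1612, 1681 and 1836 in the HA-IPs, a 1.62-fold difference (limma adjusted p = 0.00094). COL8A1, a short-chain collagen of vessel walls, rested on few reads, with 23.4, 36.2 and 20.3 counts in the Flag-IPs against 1.41, 1.98 and 12.1 in the HA-IPs (log2 -2.56 ± 0.62 SE, limma adjusted p = 0.0211). FBLN1, an elastic fibre and basement membrane protein, differed by 1.17-fold, from 1424 ± 39.5 to 1214 ± 21.3 (SD, n = 3 each, limma adjusted p = 0.0215). Without HA-IP replicate 3, which was highest for most of these genes, 8 of the 10 were still called (all but COL5A2 and FBLN1), and the Flag-IP mean was 20.7 times that of the other 2 HA-IPs for COL3A1 and 57.2 times for COL1A2. Of the 10 genes, 7 passed in each of the 6 fits that left out a library (BGN, COL1A2, DCN, COL3A1, POSTN, COL1A1 and SPARC). COL5A2 and FBLN1 passed in 2 of them and COL8A1 in 3. BGN, DCN, COL1A2 and COL8A1 could enter the table through the Flag-IPs, where they are high. Their passes in these fits are therefore no independent support.

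The bases before BGN and POSTN are shown because these are members higher in the Flag-IPs by large folds for which a promoter entry was at hand. They differ in the letters searched, GGGCGG on either strand in BGN (chrX:153494730-153494979, plus strand) and TATAA, the core of a TATA box, on either strand in POSTN (chr13:37598769-37599018, minus strand), both from RefSeq on GRCh38.p14.
BGN: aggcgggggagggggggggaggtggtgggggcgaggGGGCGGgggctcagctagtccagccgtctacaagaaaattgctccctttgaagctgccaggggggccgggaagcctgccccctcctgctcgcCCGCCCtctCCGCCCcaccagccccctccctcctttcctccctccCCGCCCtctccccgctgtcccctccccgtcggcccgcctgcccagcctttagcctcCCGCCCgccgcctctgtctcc
POSTN: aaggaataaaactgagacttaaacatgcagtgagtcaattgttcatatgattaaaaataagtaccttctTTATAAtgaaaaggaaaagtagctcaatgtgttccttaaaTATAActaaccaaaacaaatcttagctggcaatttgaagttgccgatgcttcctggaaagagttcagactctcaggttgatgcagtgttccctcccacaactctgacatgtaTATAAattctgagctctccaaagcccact

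**Figure D3:**
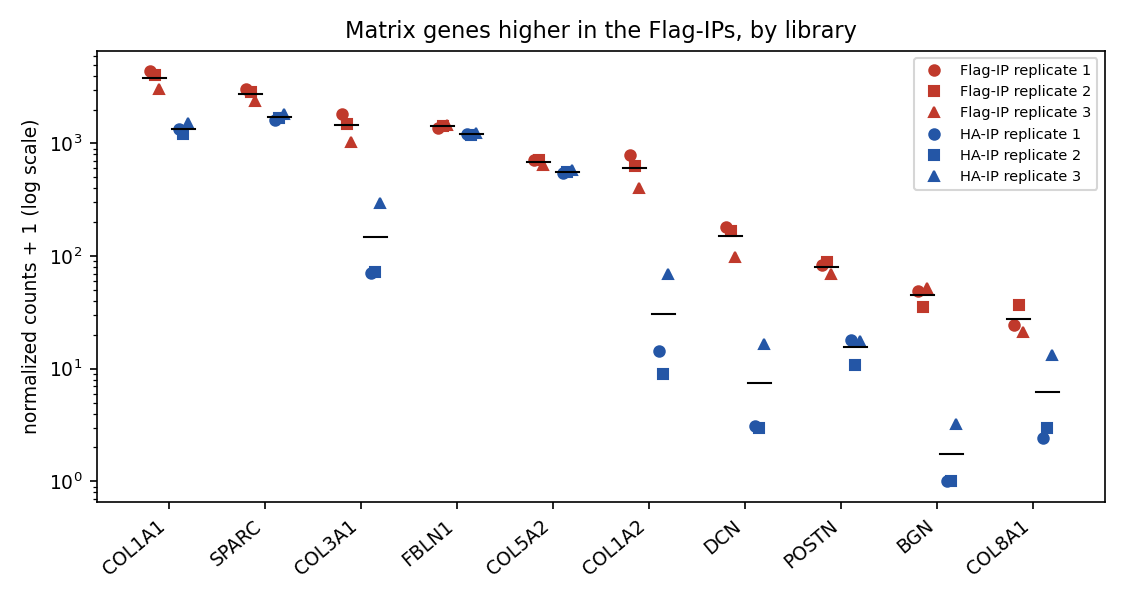
Normalized counts + 1 on a log scale (y axis) of the 10 matrix genes higher in the Flag-IPs, for each of the 6 libraries, with black bars at the group means. The Flag-IPs (red) lie above the HA-IPs (blue) for each gene, and HA-IP replicate 3 (blue triangle) is the highest HA-IP in 9 of the 10.

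The libraries of a group did not take part equally in this difference. HA-IP replicate 3 was the highest HA-IP in 9 of the 10 genes, and Flag-IP replicate 3 was the lowest Flag-IP in 8. HA-IP replicate 3 exceeded the mean of the other 2 HA-IPs by 6.41 times in COL1A2 and 7.53 times in DCN, but by 1.18 times in COL1A1 and 1.23 times in POSTN. Genes of heart muscle had a similar order of libraries. MYH7, a cardiac myosin heavy chain, had 83895, 65504 and 42902 normalized counts in the Flag-IPs against 1031, 478 and 6766 in the HA-IPs, where HA-IP replicate 3 was 8.97 times the mean of the other 2. All 11 measured genes of a heart muscle list were higher in the Flag-IPs, with a median log2 fold change of -4.51. This list, like the other lists, was chosen with earlier results of these data known. Together the 11 genes made up 0.477%, 0.342% and 0.217% of the normalized counts of Flag-IP replicates 1 to 3 and 0.0078%, 0.0048% and 0.042% of the HA-IPs. None of these 11 was at 0 in any library.

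Markers of other cell types that could hold matrix mRNA were also measured. Of 8 fibroblast markers that are not matrix genes, 3 were higher in the Flag-IPs (PDGFRB, TCF21 and FAP) and 5 were not called, with a median log2 fold change of -0.27. FAP, a protease of activated fibroblasts, had 85.7, 84 and 38.7 counts in the Flag-IPs against 0.706, 0 and 9.92 in the HA-IPs. The fibroblast list summed to between 0.00366% and 0.00395% of a Flag-IP and between 0.00337% and 0.00363% of an HA-IP. Of 8 endothelial markers 5 were higher in the Flag-IPs (median -1.24), as were 4 of 6 smooth muscle markers (median -1.12) and 1 of 2 blood markers. The endothelial list summed to between 0.00164% and 0.00211% of a Flag-IP and between 0.00113% and 0.00119% of an HA-IP, and the smooth muscle list to between 0.00637% and 0.00751% and between 0.005% and 0.00556%. At 0 in 1 HA-IP were TCF21, FAP and the endothelial receptor TIE1. The part of these cell types in the difference of the 10 matrix genes was not tested. All 6 libraries were pull-downs from 1 cell line, without a library of input RNA. In such bulk samples, fewer cells of a type, less of an mRNA per cell and a difference in what each antibody recovered cannot be told apart.

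**Figure D4:**
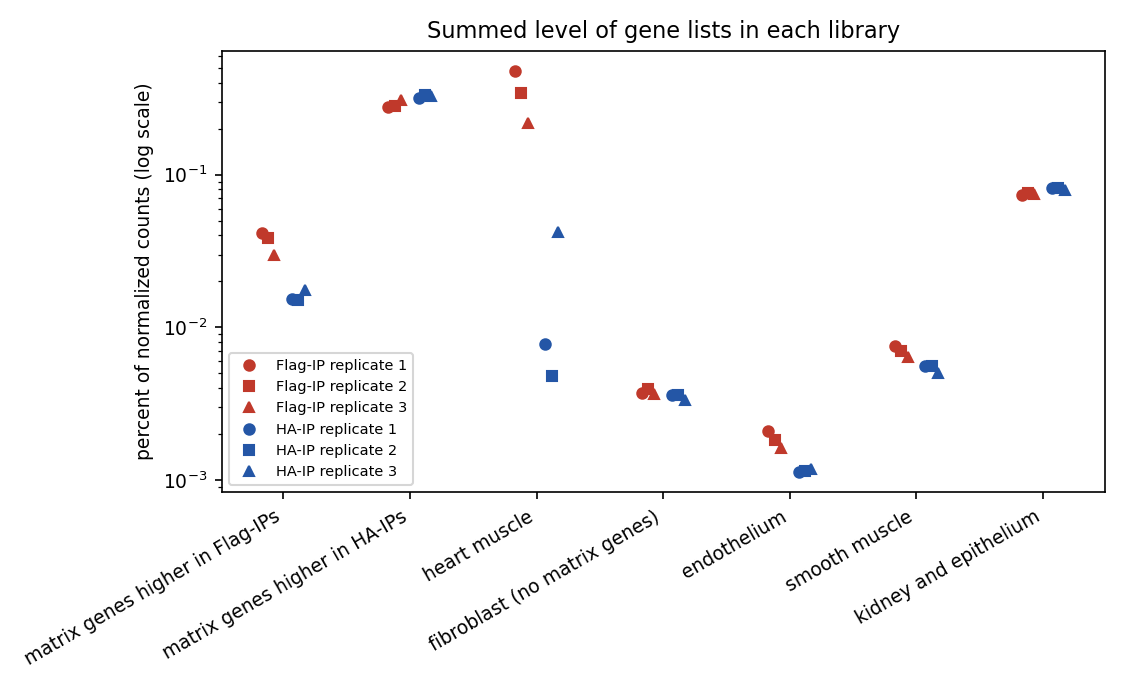
Summed normalized counts of the called matrix genes and of the cell type marker lists, as a percent of each library on a log scale (y axis), with 1 point for each of the 6 libraries. The heart muscle list ranges from 0.0048% to 0.477%, with HA-IP replicate 3 (blue triangle) above the other HA-IPs. For the matrix genes higher in the Flag-IPs, HA-IP replicate 3 is only slightly on top, at 0.0176% against 0.0154% and 0.0151%.

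Chains that assemble into 1 molecule were compared as ratios within each library, which do not depend on the scaling of libraries. The ratio of COL1A1 to COL1A2 was 5.49, 6.42 and 7.62 in the Flag-IPs against 99.2, 154.0 and 22.0 in the HA-IPs. COL1A2 had only 19, 8 and 62 reads in the HA-IPs and could enter the table through the Flag-IPs, so the HA-IP ratios rest on few reads. The collagen I trimer holds 2 chains of COL1A1 and 1 of COL1A2, and per kilobase of transcript the ratio was between 4.71 and 6.54 in the Flag-IPs and between 18.9 and 132.1 in the HA-IPs. The groups did not overlap, with a mean log2 difference of 3.33 (exact permutation test, two-sided, p = 0.1, 0.233 after Benjamini-Hochberg adjustment over 7 pairs). With 3 libraries against 3, 0.1 is the smallest p that the test can give. COL4A1 to COL4A2 stayed between 0.798 and 0.813 in the Flag-IPs and between 0.769 and 0.785 in the HA-IPs, again without overlap but with a mean log2 difference of -0.053 (exact p = 0.1). COL5A1 to COL5A2 was between 0.409 and 0.569 in the Flag-IPs and between 0.622 and 0.692 in the HA-IPs (log2 difference 0.46, exact p = 0.1). LAMB1 to LAMC1 lay between 0.607 and 0.627 in the Flag-IPs and between 0.602 and 0.618 in the HA-IPs, overlapping (exact p = 0.5). NID1 to LAMC1 lay between 0.472 and 0.500 and between 0.443 and 0.482 (exact p = 0.2). The ratio COL6A1 to COL6A2 was between 2.73 and 2.95 in the Flag-IPs and between 2.80 and 3.11 in the HA-IPs (exact p = 0.5). COL6A3, the third chain of collagen VI, was at most 0.0055 of COL6A1 in any library (exact p = 0.4 for the difference).

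**Figure D5:**
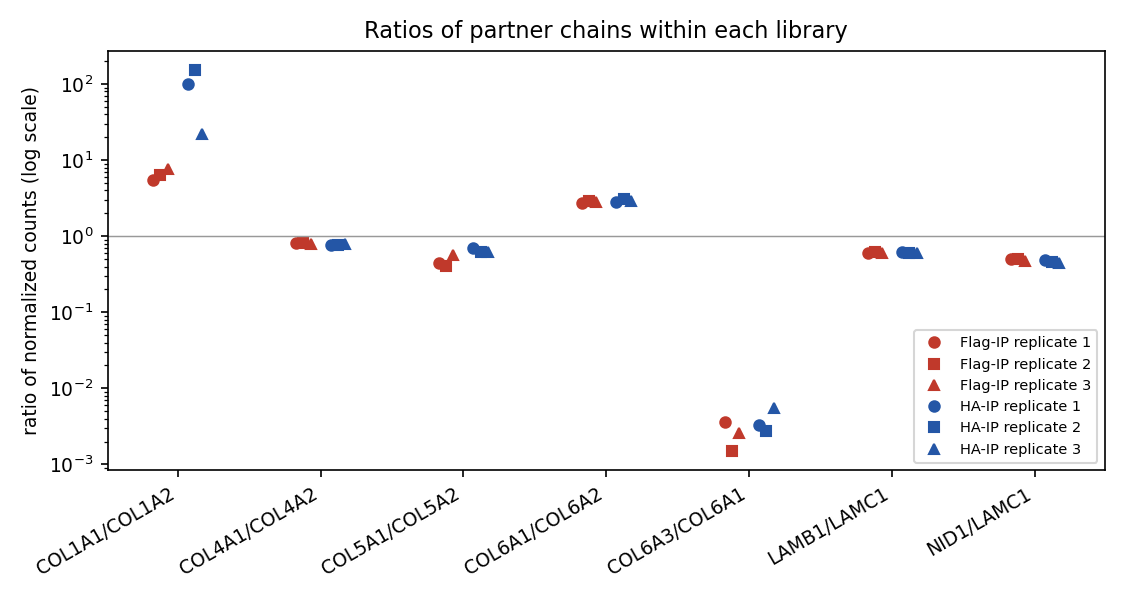
Ratio of the normalized counts of 2 partner chains within a library on a log scale (y axis) for 7 pairs, with 1 point for each of the 6 libraries. COL1A1/COL1A2 separates the Flag-IPs (5.49 to 7.62) from the HA-IPs (22.0 to 154.0, where COL1A2 had few reads), while LAMB1/LAMC1 stays between 0.602 and 0.627.

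The remaining members were not called. Collagen VI forms beaded filaments, and its chains COL6A1 and COL6A2 were well measured and lay near 0, at log2 0.046 ± 0.059 and -0.0046 ± 0.06 (SE). COL6A1 had 4329.7, 4929 and 4964 counts in the Flag-IPs against 4875, 5001 and 4783 in the HA-IPs. COL6A3, COL6A5 and COL6A6 had at most 33.0 counts in a library, and at this depth their log2 fold changes of 0.62 ± 0.41, -1.05 ± 0.40 and 1.05 ± 0.40 (SE) did not pass. FBN1 and FBN2 encode the fibrillins of elastic microfibrils. FBN2 was the second highest member by counts and had 15962, 16534 and 20373 in the Flag-IPs against 19118, 22126 and 21094 in the HA-IPs, with Flag-IP replicate 3 above the lowest HA-IP (log2 0.24, limma adjusted p = 0.0876). FBN1 was at log2 -0.0093 ± 0.064 SE. COL18A1, a basement membrane collagen that releases endostatin, was at log2 0.16 (adjusted p = 0.322), and COL5A1, the partner of COL5A2, at 0.16 (adjusted p = 0.366). Of the other fibrillar collagens, COL11A2, COL24A1, COL27A1 and COL5A3 were between log2 -0.15 and 0.18. Among the FACIT collagens, which sit on fibrils, COL16A1 was at -0.998 ± 0.39 (SE) with at most 32.5 counts in a library (adjusted p = 0.125), and COL9A2, COL9A3, COL12A1, COL19A1 and COL21A1 were between -0.13 and 0.39. THBS1, the adhesive glycoprotein thrombospondin 1, was at log2 -0.40 with overlapping groups (adjusted p = 0.131). COL7A1, of the anchoring fibrils, COL26A1 and the transmembrane collagens COL13A1, COL17A1 and COL23A1 were between log2 -0.19 and 0.22. Just inside the threshold was LAMA4 (adjusted p = 0.0443) and just outside it LAMA3 (0.0504).

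Genes that make, crosslink, cut and bind the matrix were counted from 5 lists with 96 measured genes, of which 14 were higher in the HA-IPs (14.6%) and 7 higher in the Flag-IPs (7.29%). The shares over all genes were 5.79% and 7.1%. The first count ran from 3 (without Flag-IP replicate 2 or HA-IP replicate 2) and 5 (without HA-IP replicate 1 or 3) to 23 (without Flag-IP replicate 3), and the second from 1 (without Flag-IP replicate 2 or HA-IP replicate 1 or 2) to 6, with 3 without HA-IP replicate 3 and 4 without Flag-IP replicate 1. Among 28 collagen-modifying enzymes and chaperones, 4 were higher in the HA-IPs and 2 higher in the Flag-IPs. P4HA2, a prolyl hydroxylase of collagen, had 1758, 1593 and 1701 counts in the Flag-IPs against 2036, 2129 and 2076 in the HA-IPs (1.24-fold, limma adjusted p = 0.00635), and P3H1, which hydroxylates other prolines of collagen, was 1.26-fold higher there (adjusted p = 0.0287). COLGALT1, which adds galactose to collagen, and PPIB, a folding isomerase, were 1.14- and 1.15-fold higher in the Flag-IPs (adjusted p = 0.029 and 0.044). Of 7 crosslinking enzymes, the lysyl oxidase LOXL2 was higher in the HA-IPs (1.20-fold, adjusted p = 0.0268) and the transglutaminase TGM2 higher in the Flag-IPs (1.44-fold, adjusted p = 0.0273).

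Of 19 matrix proteases and inhibitors, 4 were higher in the Flag-IPs and 1 in the HA-IPs. MMP14, a membrane-bound collagenase, had 245, 203 and 157 counts in the Flag-IPs against 85.4, 87.2 and 97 in the HA-IPs, a 2.25-fold difference (limma adjusted p = 0.00231). TIMP1, an inhibitor of these proteases, was 1.21-fold higher in the Flag-IPs (adjusted p = 0.043), and ADAMTS1, a proteoglycan-cutting protease, 1.17-fold higher in the HA-IPs (adjusted p = 0.011). Of 31 integrins and other matrix receptors, the HA-IPs were higher for 6, and 25 did not pass. ITGAV, the alpha chain of the vitronectin and fibronectin receptors, had 3865, 3961 and 4311 counts in the Flag-IPs against 5138, 4943 and 5208 in the HA-IPs (1.26-fold, limma adjusted p = 0.00314). GPC4, a cell surface heparan sulphate proteoglycan, was 1.27-fold higher (adjusted p = 0.00416). Of 11 genes of TGF-beta ligands, latency proteins and matrix-linked targets, LTBP1, which stores latent TGF-beta in the matrix, and CCN1, a matricellular protein, were higher in the HA-IPs (1.18- and 1.28-fold, adjusted p = 0.015 and 0.0131).

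The members share features that their symbols did not fix. Their transcripts are long, with 50 of 60 of at least 4000 bases in the canonical GENCODE 44 transcript. Of those 50, 11 were higher in the HA-IPs (22%) and 6 higher in the Flag-IPs (12%). Of all 5838 genes with so long a transcript, 9.76% were higher in the HA-IPs and 4.40% higher in the Flag-IPs. The 30 members whose mean reached 1000 normalized counts held the 11 genes higher in the HA-IPs, or 36.7% of the 30, against 14.4% of all genes at that level. Another 3 of these 30 were higher in the Flag-IPs (10%, against 7.42% of all genes at that level). Of the 30 members below that level, 7 were higher in the Flag-IPs (23.3%, against 6.93% of all 10875 genes below it). BGN, DCN, COL8A1 and COL1A2 are among these 7 and could enter the table through the Flag-IPs, where they are high, so this share is no independent result. Median transcript GC content was 49.4% in the 11 genes higher in the HA-IPs, 50.2% in the 10 higher in the Flag-IPs and 59.1% in the 39 not called.

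Of the 60 members, 47 had a promoter entry in RefSeq. In the 250 bases upstream, GGGCGG on either strand was found in 31 of the 47 (66.0%) and in 42.3% of all 27305 promoters. CCAAT was found in 11 (23.4%, against 33.0% of all promoters) and TATAA in 10 (21.3%, against 19.6%). All promoters include those of genes outside the 16834 analysed here, whereas the members all passed the read filter. The shares are therefore of unlike sets. Entries were at hand for 9 of the genes higher in the HA-IPs, and GGGCGG was in LAMC1, NID1, FN1, LAMB1 and TNC of these, and in BGN and FBLN1 of the 4 with an entry that were higher in the Flag-IPs.

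Some members share exonic bases with a gene on the opposite strand, and whether the counting used strand is not given in the sources used here. Among the protein-coding partners in the table, NID2 shares 1909 bases with RTRAF, COL18A1 1563 with SLC19A1 and LAMB1 300 with DLD, so their counts may hold reads of both genes. Of the 10 members higher in the Flag-IPs, COL1A1 and SPARC overlap an antisense long noncoding RNA in the annotation.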

How the data were processed

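Polyadenylated RNA from Flag-IPs and HA-IPs (3 libraries each) was sequenced as paired reads of 150 bases. Per the study's methods and the submitters' processing notes, reads were trimmed with Trimmomatic 0.36, aligned to GRCh38 with STAR 2.5.2b and counted with featureCounts (Subread 1.5.2), and genes were kept only with enough reads (every gene has at least 10 reads in 3 libraries). The values that the authors deposited are counts divided by a DESeq2 size factor, a signal of normalized counts. Dividing by each library's smallest step gave whole reads for 100% of values (tolerance 0.01 read). The deposited log2 fold changes and adjusted p-values are the authors' own comparison and were not used.

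Log2(normalized counts + 1) of all 16834 genes was fitted with limma 3.58.1 with a variance trend, two-sided, without a block, and p-values were adjusted by Benjamini-Hochberg. The added 1 makes the log2 fold change of low genes smaller. Folds in the text are ratios of group means, while log2 fold changes are differences of mean log2 values, so they need not match. Ratios of partner chains were compared with exact permutation tests (scipy 1.17.1). Alternatives were a pseudocount of 0.1 or 10, a mean of at least 50, quantile, total and upper quartile scaling, edgeR 4.0.16 and DESeq2 1.42.0 on the recovered reads, limma without the trend, the replicate block, removal of GC content and length trends (splines with 5 degrees of freedom), and each library left out. The fits were tested on simulated data. Transcript lengths, GC content and overlaps came from GENCODE 44, which matched 99.1% of genes and all 60 members; upstream sequences came from RefSeq.

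The members and lists were chosen with earlier results of these data known. The text names every called member, the 10 members with the highest mean counts, the partner chains, up to 2 called genes in each direction of each pathway list and, beside a result, cell type markers. Other members are named to account for the class they belong to. A gene that fits the symbol rule is not reported here and is left out of the members' counts, though it stayed in the fit.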

Additional observations from a re-analysis of the deposited data

How the results depend on the processing

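The 11 members higher in the HA-IPs and the 10 higher in the Flag-IPs kept their direction under every alternative that gave them a value (BGN, COL8A1 and POSTN have none where a mean under 50 normalized counts is left out), but the number of calls did not hold. Members called higher in the HA-IPs numbered 11, and 5 with quantile scaling, 4 with the same total per library, and 0 without the variance trend and with GC and length trends removed, with or without the replicate block (16, 4 and 5 at an unadjusted p under 0.05 in these last 3 fits, in the order no trend, without block, with block). edgeR called 9 and DESeq2 16. Leaving out 1 library gave from 0 to 23. Members higher in the Flag-IPs numbered 10, and 3 without the trend and 1 with the block and the GC and length trends removed (12 and 15 at an unadjusted p under 0.05). Leaving out 1 library gave from 7 to 11. The median log2 fold change of the members was 0.13, 0.075 with the same total, 0.0061 with GC and length trends removed, with or without the block, and from 0.076 to 0.20 with a library left out.

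Over all genes, the 975 higher in the HA-IPs became 471 with the same total, 6 without the trend, 450 with GC and length trends removed and 18 with the block added, and from 103 to 1550 with a library left out. The 1196 higher in the Flag-IPs became 182 without the trend, 113 with the block and GC and length trends removed, and from 517 to 1509 with a library left out. In the pathway lists the 14 genes higher in the HA-IPs became 6 with the same total, 0 without the trend, 3 with GC and length trends removed and 0 with the block added, and from 3 to 23 with a library left out. The 7 higher in the Flag-IPs became 3 with quantile scaling, 0 without the trend, 3 with the replicate block, 4 with GC and length trends removed, 0 with both, and from 1 to 6 with a library left out. The pathway lists held 24 and 9 genes at an unadjusted p under 0.05 without the trend, and 14 and 17 with the block and the trends removed. The cause of these changes was not tested.

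Some genes that were not called changed sign. LAMA5 went to -0.18 with GC and length trends removed, with or without the block. COL6A1 went to -0.0067 with the same total, -0.077 with GC and length trends removed, with or without the block, and from -0.018 to 0.081 with a library left out (lowest without Flag-IP replicate 1). COL6A2 ran from -0.043 to 0.033 with a library left out, and was above 0 without Flag-IP replicate 3, HA-IP replicate 2 (0.021) and HA-IP replicate 3 (0.0021). The log2 ratio of LAMB1 to LAMC1 differed by -0.012 between the groups, and by from -0.024 to 0.0032 with a library left out (0.0032 without Flag-IP replicate 2).

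Deviations from the group means of same-numbered libraries correlated at -0.16, 0.031 and -0.31 over 13141 genes. With 3 libraries in a group such deviations are tied to one another, so these values cannot show whether the replicate numbers paired the samples. With the replicate block 8 members were higher in the HA-IPs and 9 higher in the Flag-IPs, and 752 and 910 of all genes. BGN had 2 reads in all in the HA-IPs, so its fold rests on few reads.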
